A study of Homo sapiens with 44 samples.

Results

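Interferon alpha (IFNα) and interferon gamma (IFNγ) were compared directly for their effect on chromatin accessibility in Ccd18-Co, an established fibroblast line from human colon. The comparison used all libraries carrying either label, which were 4 IFNα and 4 IFNγ libraries among the 44 libraries of the series, and every region of the deposited table, 407383 in all, of which 407176 passed a filter on low values. Cells of both groups were serum starved and then received 10 ng/ml of one recombinant human cytokine for a day, and 4 unstimulated libraries of the same line served to show the direction of each difference. The whole series held 11 such groups of the same line, each with 4 libraries. All libraries came from a single cell line, and nothing in the labels says whether replicates were separate cultures, so that the p-values measure the spread between these libraries, which may be technical. Accessibility was read out by ATAC-seq, in which a transposase inserts sequencing adaptors into open DNA, and plots use the gene symbols IFNA and IFNG for the 2 treatments.

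Type I interferons such as IFNα signal through the receptor subunits IFNAR1 and IFNAR2 and the kinases JAK1 and TYK2 to assemble a complex of STAT proteins with IRF9, which binds the interferon-stimulated response element (ISRE) in antiviral genes. IFNγ, the type II interferon, signals through IFNGR1 and IFNGR2 with JAK1 and JAK2 to a STAT dimer that binds the gamma-activated site (GAS), and induces the transcription factor IRF1, which in turn recognises ISRE-like sequences. IFNγ is known for inducing antigen presentation in fibroblasts and other non-immune cells, where CIITA drives the MHC class II genes.

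Sequences are given, as examples of these motifs, for 3 of the regions with the largest differences that held one of them. They were chosen for holding a motif, so that they do not show what the best-separated regions contain at large. The searched motifs were the ISRE core GAAANNGAAA and the GAS core TTCNNNGAA, on both strands, and capitals mark their copies in 100 bases of the plus strand of hg38 taken from within the region. A copy on the other strand appears as its reverse complement. The GBP5 and EID2 regions had more coverage with IFNγ and the HERC6 region more with IFNα.
GBP5, chr1:89287035-89287134, between genes: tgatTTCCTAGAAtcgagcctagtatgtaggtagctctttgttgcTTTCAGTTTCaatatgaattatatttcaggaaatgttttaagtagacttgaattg
EID2, chr19:39557994-39558093, between genes: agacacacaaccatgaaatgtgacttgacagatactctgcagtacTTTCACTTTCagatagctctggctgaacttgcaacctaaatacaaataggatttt
HERC6, chr4:88382849-88382948, intron of HERC6: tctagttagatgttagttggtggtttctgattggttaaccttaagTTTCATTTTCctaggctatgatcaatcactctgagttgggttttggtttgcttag
The gene before each sequence is the name that the deposited table gives the region. The GBP5 window held both motifs and the other windows an ISRE core. The regions with the largest difference in each direction, named FAR2 and IFI6, held neither core.

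A promoter is shown for CD74, the chaperone of MHC class II molecules, because the region at its start site had the largest difference of any promoter. RefSeq's 200 bases before the start, on the minus strand of hg38, are printed with the CCAAT box in capitals.
CD74, chr5:150412911-150413110: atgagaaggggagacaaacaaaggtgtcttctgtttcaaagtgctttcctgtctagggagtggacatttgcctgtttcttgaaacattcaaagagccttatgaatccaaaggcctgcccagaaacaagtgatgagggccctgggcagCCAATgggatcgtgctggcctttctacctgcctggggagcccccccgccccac
The letters CCAAT or their reverse complement occurred in the same window of 28% of the 35116 human promoters in the RefSeq table.

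Coverage in the regions summed to 325.2 to 823.1 megabases (Mb) in the IFNα libraries, 420.8 to 657.5 Mb in the IFNγ libraries and 328.6 to 524.4 Mb in the unstimulated libraries. Total coverage, the share of regions without coverage, the share of coverage in promoters and the share in the top 1% of regions did not pass an exact two-sided permutation test between IFNα and IFNγ (p from 0.343 to 0.971, n = 4 each, smallest possible p 0.0286). IFNα replicate 3 had 18.88% of its coverage in regions classed as promoters, against 20.14 to 21.91% in the other 7 interferon libraries. On the log2 scale it correlated with the other IFNα libraries at 0.811 to 0.848. Those correlated with each other at 0.857 to 0.902, and the IFNγ libraries at 0.868 to 0.891. Between IFNα and IFNγ libraries the correlations ran from 0.807 to 0.909, a range that takes in both. Fibroblast identity was checked at the start sites of 14 marker genes, whose summed coverage per Mb was 166.9 to 187.9 with IFNα, 169.0 to 189.5 with IFNγ and 169.6 to 184.3 without stimulation. The 6 epithelial start-site regions measured summed to at most 10.6 and the 10 endothelial ones to at most 12.2 in any of these libraries. The 4 leukocyte start-site regions measured summed to 42.7 to 50.1 with IFNα, 43.7 to 51.5 with IFNγ and 35.5 to 41.3 without stimulation. Per region their mean was 11.7 with IFNα and 11.8 with IFNγ, near the 12.8 and 12.6 of the fibroblast regions. The epithelial and leukocyte lists held 12 genes each, of which only 6 and 4 had a start-site region measured. None of the start-site regions of the 4 marker lists passed the test between the interferons, and their part in the results was not tested.

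Most regions that differed between the interferons were more accessible with IFNγ, and the larger differences were also on that side. In the direct comparison 4783 of 407176 regions (1.17%) had an adjusted p-value under 0.05 (limma, Benjamini-Hochberg over all tested regions). Of these, 3573 (0.878% of those tested) were higher with IFNγ and 1210 (0.297%) were higher with IFNα. Differences are given as IFNα minus IFNγ on the scale log2(coverage per Mb + 0.5), so that negative values are higher with IFNγ, and this scale understates the change of regions with little coverage. The median difference was -1.27 for regions higher with IFNγ and 0.81 for regions higher with IFNα, beside 0.01 over all tested regions. A difference of at least 4-fold on this scale was reached by 196 regions higher with IFNγ and by 9 regions higher with IFNα. The ranges of the 4 IFNα and the 4 IFNγ libraries did not overlap in 92.1% of the regions higher with IFNγ and 85.0% of those higher with IFNα, beside 5.73% of all tested regions.

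Leaving out any 1 interferon library, which also made its group smaller, lowered the calls to between 3048 and 3883. The lowest counts follow. Without IFNγ replicate 3 there were 3048 calls, of which 2332 were higher with IFNγ and 716 with IFNα, without IFNγ replicate 2 there were 2333 regions higher with IFNγ, and without IFNα replicate 1 or 4 there were 738 or 710 regions higher with IFNα.

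The unstimulated libraries placed each difference. Both treatments were set against the same unstimulated libraries, so that their changes are not independent of each other and are given side by side. IFNα against unstimulated called 3448 regions (0.847%) and IFNγ against unstimulated called 7144 (1.75%). Without unstimulated replicate 3 the first of these counts was 2225. Of the 3573 regions higher with IFNγ, 1955 (54.7%) were raised by IFNγ over unstimulated cells and 94 were raised by both treatments. A further 354 had been lowered by IFNα and were not called for IFNγ, and 1261 (35.3%) were called for neither treatment against unstimulated cells. Of the 1210 regions higher with IFNα, 287 (23.7%) were raised by IFNα, 170 (14.0%) were lowered by IFNγ and not called for IFNα, and 752 (62.1%) were called for neither. The unstimulated mean lay between the means of the 2 treatments in 54.5% of the regions higher with IFNγ and in 79.8% of the regions higher with IFNα. Of the regions higher with IFNα 839 of 1210 differed by under 2-fold on the fitted scale, as did 966 of the 3573 higher with IFNγ.

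**Figure D1:**
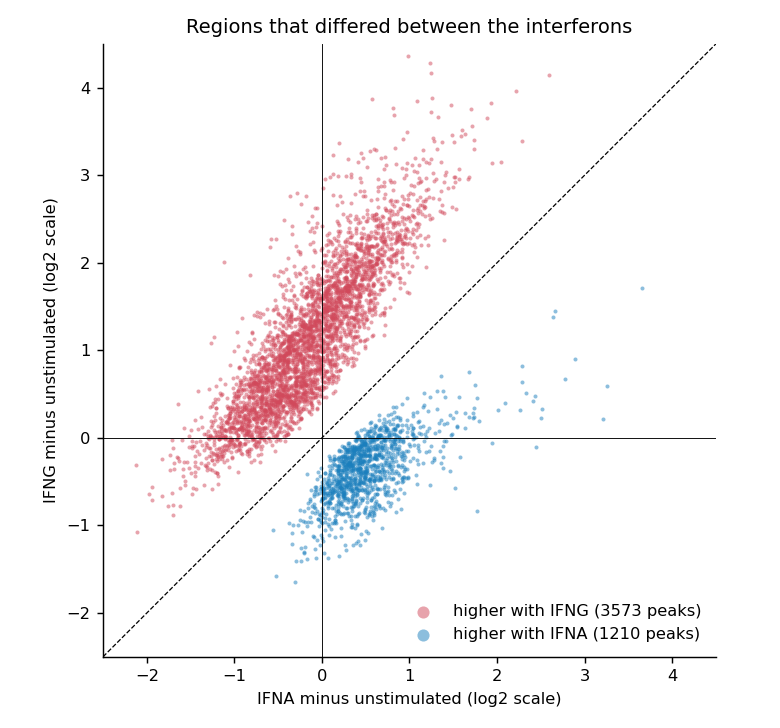
Each point is 1 of the 4783 regions that passed the test, with its change from unstimulated cells under IFNA on the x axis and under IFNG on the y axis, both on the log2(coverage per Mb + 0.5) scale, and the dashed line marks equal change. The 3573 regions higher with IFNG reach 4.36 on the y axis, while the 1210 regions higher with IFNA sit mostly below 1 on the x axis, and the empty band along the line follows from the choice of regions that differ.

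Regions higher with IFNγ held ISRE sequences more often than tested regions at large, and regions higher with IFNα less often, as a description without a test. An ISRE core was present in 36.8% of the regions higher with IFNγ, in 3.88% of those higher with IFNα and in 9.13% of all tested regions of the same length. Among the 1955 regions that IFNγ raised over unstimulated cells the share was 50.5%. The GAS core was found in 25.8%, 13.6% and 17.2% of the same 3 sets, and the stricter GAS form TTCCNGGAA in 5.49%, 1.40% and 2.29%. The share of called regions also went with the number of motif copies. Of the 3532 regions with 2 or more ISRE cores, 7.70% were called higher with IFNγ and 0.113% higher with IFNα, whereas of the 307240 regions with neither core 0.538% and 0.329% were called.

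The motif of AP-1, the FOS and JUN family of transcription factors, had the opposite pattern. TGANTCA was present in 54.1% of the regions higher with IFNα and in 25.7% of those higher with IFNγ, which was also the share among all tested regions. Regions higher with IFNα had more coverage than most, with a median of 8.28 per Mb over the 8 libraries against 4.27 for regions higher with IFNγ and 0.819 for all tested regions. Where coverage averaged 4 per Mb or more, AP-1 was present in 56.6% of those higher with IFNα, in 29.7% of those higher with IFNγ and in 32.5% of all. The ISRE core was present in 3.23%, 33.6% and 8.40% of the same sets. The GAS core was present in 13.6%, 26% and 14.9% of them, so that at this coverage the IFNα share was near that of all regions. These shares describe letters in the regions and were not tested.

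The ISRE share was also visible in whole libraries. Regions holding an ISRE core took up 8.80 to 8.89% of all coverage in the IFNγ libraries, 7.5 to 7.68% in the IFNα libraries and 7.14 to 7.19% in the unstimulated libraries, and the 3 groups did not overlap.

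**Figure D2:**
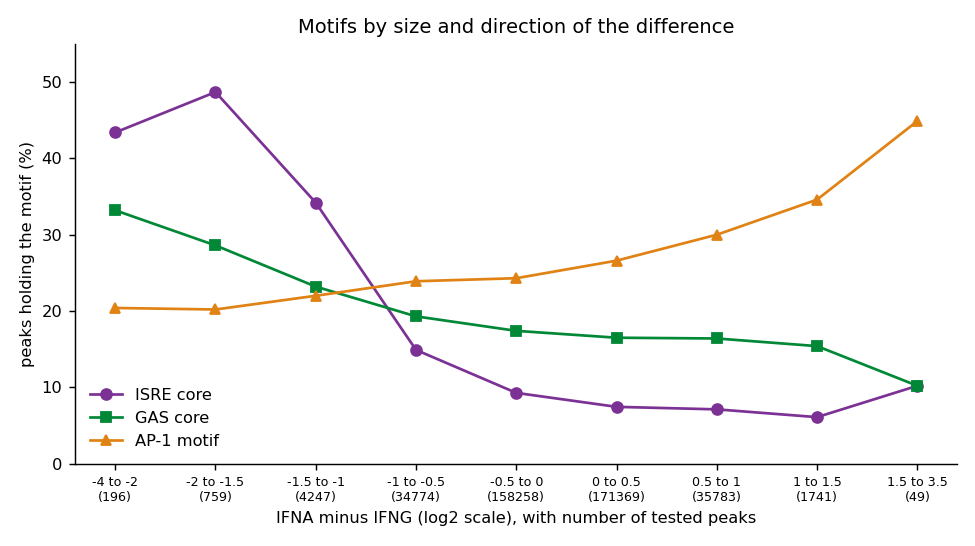
The share of tested regions that hold each motif is plotted against the difference between IFNA and IFNG in bins on the log2 scale, with the number of regions under each bin. The ISRE share is 43.4% in the leftmost bin and highest, at 48.7%, in the bin from -2 to -1.5. It is lowest, at 6.09%, in the bin from 1 to 1.5, and 10.2% in the rightmost bin. The AP-1 share runs from 20.4% at the left end to 44.9% in the rightmost bin, which holds 49 regions.

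Regions near genes differed in class. Promoters made up 3.16% of the regions higher with IFNγ and 7.85% of those higher with IFNα, beside 7.15% of all tested regions. The called regions had more coverage than most, and promoters made up 20.7% of all tested regions averaging 4 per Mb or more. The near match of the IFNα share to that of all tested regions therefore does not hold at like coverage. Regions classed as distal made up 38.1%, 32.1% and 34.5% of the 3 sets. The GC content was 43.1 ± 6.95% (SD over regions) in the regions higher with IFNγ, 47.8 ± 8.14% in those higher with IFNα and 46.7 ± 9.48% in all tested regions. At least 1 region higher with IFNγ carried the name of 2691 of 23383 genes (11.5%), and 1042 genes (4.46%) had at least 1 region higher with IFNα. Of these genes, 241 had regions called in both directions.

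The largest differences in favour of IFNγ were found at regions with little coverage in both other groups. The region with the largest difference lay between genes at chr12:28698965-28699465 and carries the name FAR2, a gene for a fatty acyl-CoA reductase, although the nearest start site is 126.6 kb away. Its coverage per Mb was 18.2, 20.3, 22.8 and 23.8 in the IFNγ libraries, 1.90, 1.34, 1.28 and 1.90 in the IFNα libraries and 0.719, 0.377, 0.355 and 0.846 in the unstimulated libraries. IFNγ thus stood apart from both other groups, and IFNα lay above the unstimulated libraries without passing the test against them (difference 0.98, adjusted p = 0.255). The difference between the interferons was -3.38 ± 0.37 (SE, limma adjusted p = 3.77e-13).

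At the EID2 region whose ISRE is printed above, IFNγ libraries had 13.9, 14.3, 14.0 and 16.7 and IFNα libraries 1.37, 0.607, 1.54 and 1.70 per Mb. The unstimulated libraries, at 1.29 to 3.14, overlapped IFNα (IFNα minus IFNγ -3.12 ± 0.33, limma adjusted p = 1.04e-13). A region named CXCL17, in an intron of LIPE-AS1, had 7.11 to 8.56 with IFNγ, 0 to 1.64 with IFNα, where replicates 3 and 4 had no coverage, and 1.11 to 2.2 without stimulation. Its difference was -3.12 ± 0.36 (limma adjusted p = 7.91e-12). The region named for LGALS17A, a galectin-like locus, was the only one of the 10 largest that IFNα also raised. It had 27.9 to 36.8 with IFNγ, 3.01 to 3.78 with IFNα and 0.850 to 1.68 without stimulation, so that the 3 groups did not overlap, and it rose by 1.23 with IFNα (limma adjusted p = 0.0325) and 4.28 with IFNγ (limma adjusted p = 7.58e-26). The other regions of this rank carried the names C22orf42, GBP5, GBP1, IRF1, CD74 and HLA-DRA, with differences from -2.95 to -3.30.

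**Figure D3:**
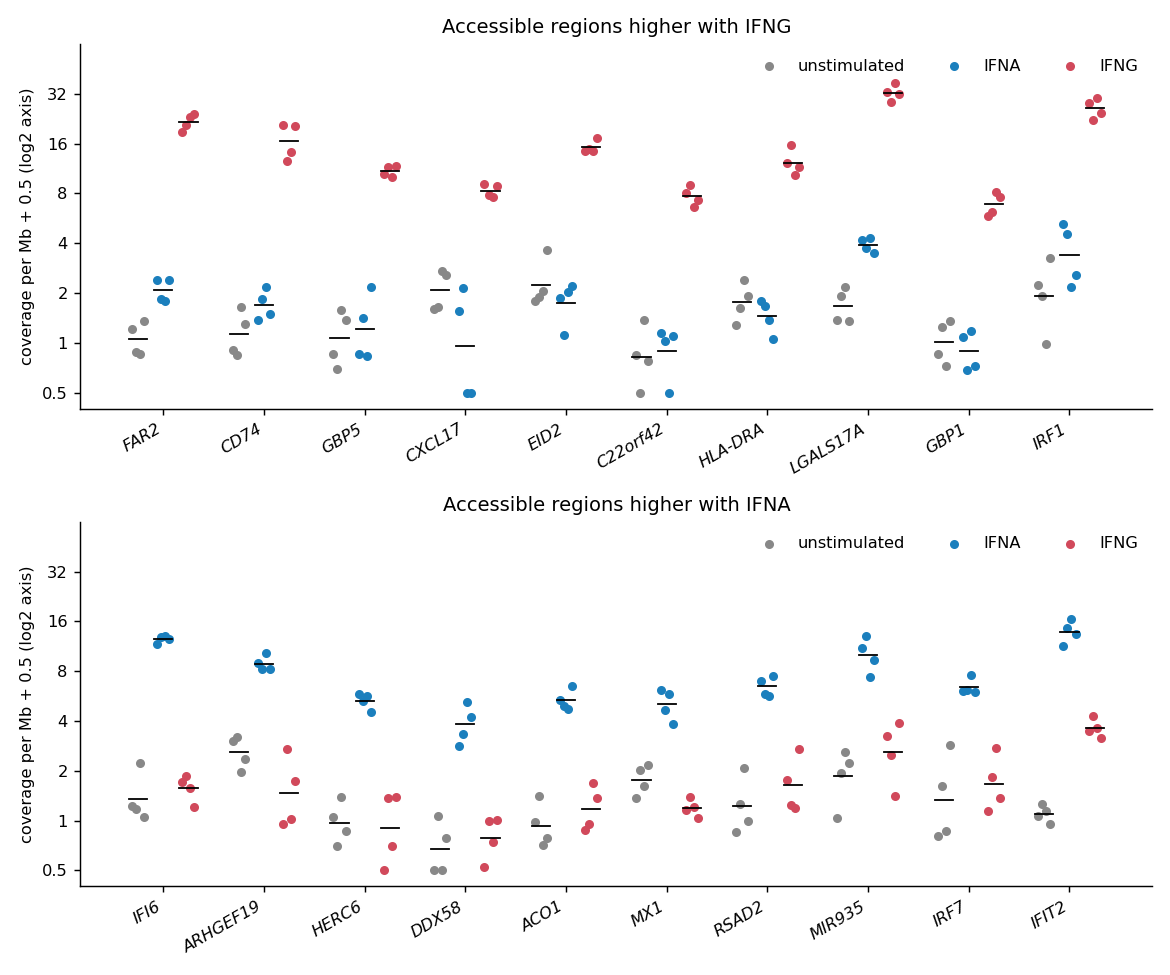
Coverage per Mb plus 0.5, on a log2 axis, is shown for each library at the 10 regions with the largest difference in each direction, with a bar at the mean of the log2 values. In every region the 4 libraries of one interferon lie above the 4 of the other, which follows from the choice of regions. In most regions the lower interferon overlaps the unstimulated libraries.

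IRF1, the transcription factor that carries much of the IFNγ response, had more regions higher with IFNγ than any other gene name, 24 of its 76. They spanned 21.5 kb (chr5:132474714-132496222) from 5.2 kb before the start of the gene to 15.81 kb after it in the direction of transcription, and 22 of them formed a run with gaps of at most 5 kb. Their coverage summed to 346.7, 334.5, 352.7 and 319.3 per Mb in the IFNγ libraries, 72.4, 77.4, 79.6 and 76.7 in the IFNα libraries and 44.3, 47.8, 53.5 and 47.8 in the unstimulated libraries. The sums, here and for the other gene names below, cover only regions called between the interferons. A gap between IFNα and IFNγ therefore follows from that choice. IFNα lay above the unstimulated libraries, and nearer to them than to IFNγ. All 24 regions were raised by IFNγ over unstimulated cells and 4 by IFNα. None of them held an ISRE core and 2 held a GAS core.

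The IRF1 promoter itself did not pass the test. Its start-site region had 34.7 ± 3.62 per Mb with IFNα, 42.8 ± 5.30 with IFNγ and 28.5 ± 3.03 without stimulation (SD, n = 4), a difference of -0.30 (95% interval -0.52 to -0.08, limma adjusted p = 0.233). The largest difference in the locus lay 11.2 kb from the start at chr5:132479355-132479855. There the IFNγ libraries had 27.8, 21.7, 29.8 and 23.9, the IFNα libraries 4.70, 4.04, 1.66 and 2.08, and the unstimulated libraries 1.74, 1.42, 0.483 and 2.74. Only IFNγ stood apart at this region (difference -2.95 ± 0.31, limma adjusted p = 5.79e-14).

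Guanylate-binding proteins (GBPs), interferon-induced GTPases that attack intracellular pathogens, followed. GBP5 had 11 of 20 and GBP1 8 of 13 regions higher with IFNγ and none higher with IFNα. The GBP5 regions summed to 106.7 to 115.1 per Mb with IFNγ, 17.6 to 20.5 with IFNα and 8.65 to 12.4 without stimulation, and the GBP1 regions to 41.6 to 50.5, 7.65 to 9.79 and 5.99 to 9.27. For GBP5 the IFNα libraries lay above the unstimulated ones, while for GBP1 IFNα and unstimulated libraries overlapped. Of the 10 start-site regions measured in the list of GBPs and related GTPases, GBP2 (-1.20), GBP4 (-1.64) and GBP5 (-2.73) were higher with IFNγ and none was higher with IFNα, beside 0.557% and 0.322% of the start-site regions of all genes. The GBP4 call was lost with a pseudocount of 0.1 (limma adjusted p = 0.16). GBP2 had 17.3 to 20.4 per Mb with IFNγ against 7.16 to 9.93 with IFNα and 7.48 to 9.73 without stimulation. The GBP genes lie next to each other and resemble each other in sequence, so that reads may not be assigned to a single copy with certainty.

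WARS1, the tryptophanyl-tRNA synthetase, is one of the genes known to respond to IFNγ. The 9 of 16 regions named WDR25 that were higher with IFNγ lay 0.2 to 12.0 kb from the WARS1 start, and 7 regions named SLC25A47 lay 43.0 to 47.8 kb from it. The WDR25 regions summed to 83.4 to 105.1 with IFNγ, 39.7 to 53.4 with IFNα and 23.2 to 33.8 without stimulation. The IFNα libraries lay above the unstimulated ones. In the SLC25A47 group the largest difference was -2.74, where the mean was 11.2 with IFNγ, 1.46 with IFNα and 0.870 without stimulation. The 1 called region that carries the name WARS, at chr14:100439091-100439591 and 64 kb from the start, was higher with IFNα instead, with means of 6.02 with IFNα, 2.92 with IFNγ and 5.12 without stimulation (difference 0.93, limma adjusted p = 0.0233). The WARS1 start-site region itself differed by -0.46 (limma adjusted p = 0.0312), with 1 IFNα library (40.2) above the lowest IFNγ library (38.8), and its call was lost in 10 of 23 alternative settings, which changed the scaling, filter, pseudocount, threshold or libraries used. The call of the WARS region was lost in 7 of 23.

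**Figure D4:**
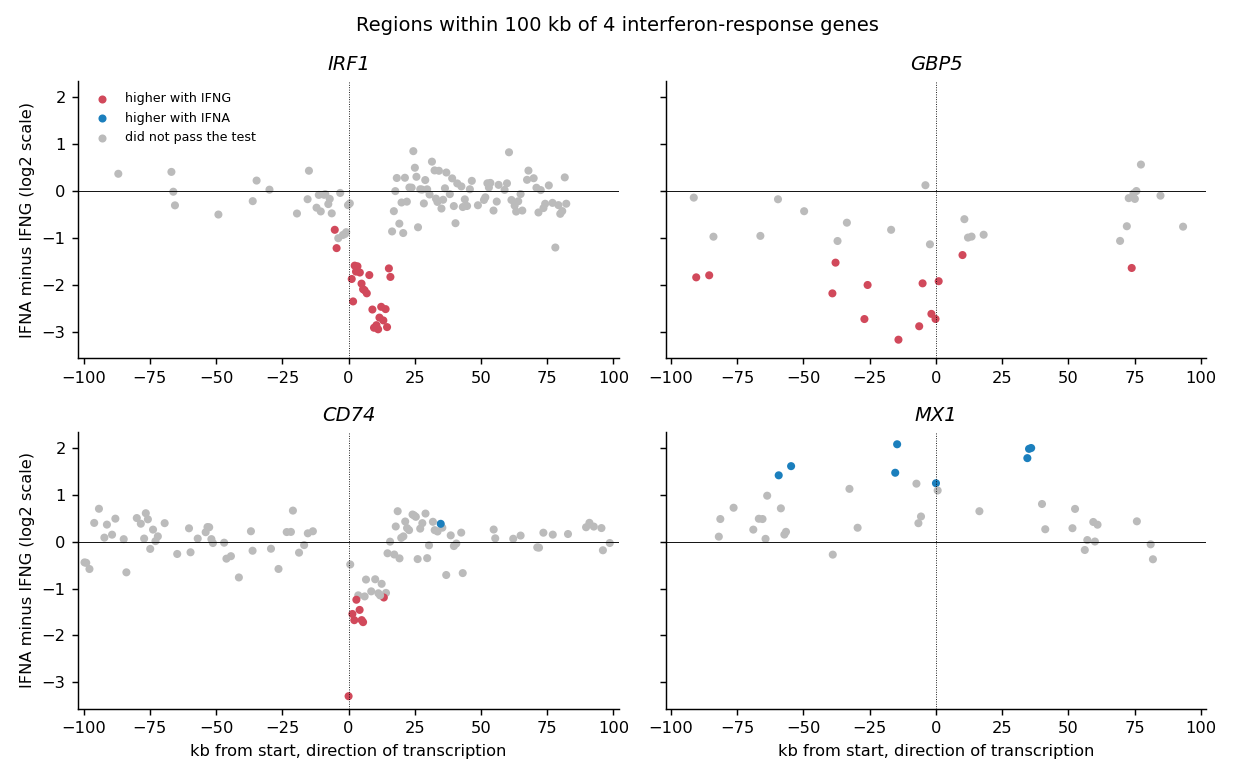
Every tested region within 100 kb of the start sites of IRF1, GBP5, CD74 and MX1 is placed by its distance in kb in the direction of transcription, with the difference between IFNA and IFNG on the log2 scale on the y axis. At IRF1 the 24 regions higher with IFNG lie between -5.2 and 15.81 kb among 125 regions, and at MX1 all 8 called regions among 39 are higher with IFNA.

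MHC class II genes, which present peptides to CD4 T cells, made up the list with the most start sites higher with IFNγ. Of 15 start-site regions measured, 9 were higher with IFNγ and none with IFNα, beside 0.557% and 0.322% of the 26740 start-site regions of all genes. Against unstimulated cells 11 of the 15 were raised by IFNγ and none by IFNα, beside 2.28% and 1.17% of all start-site regions. The median difference of the list was -1.16, beside 0.02 over all start-site regions.

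CIITA, the master regulator of this set, had 4.89, 4.83, 4.26 and 4.28 per Mb at its start-site region with IFNγ, 0.755, 1.27, 0.628 and 0.670 with IFNα and 0.661, 0, 1.13 and 0.558 without stimulation. The IFNα libraries lay among the unstimulated ones (IFNα minus IFNγ -1.95 ± 0.39, limma adjusted p = 0.000461), and the call was lost with a pseudocount of 0.1. At the CD74 promoter, IFNγ libraries had 20.1, 12.1, 13.8 and 19.9, IFNα libraries 0.882, 1.33, 1.66 and 0.994, and unstimulated libraries 0.406, 0.349, 1.14 and 0.797. Only the IFNγ libraries were clearly open, with a difference of -3.30 ± 0.38 (limma adjusted p = 4.06e-12). At HLA-DRA, which encodes the alpha chain of HLA-DR, values were 11.7, 15.2, 9.78 and 11.0 with IFNγ, 1.30, 1.18, 0.864 and 0.553 with IFNα and 0.788, 1.13, 1.88 and 1.41 without stimulation. Here IFNα and unstimulated libraries overlapped as well (difference -3.09 ± 0.34, limma adjusted p = 1.24e-12).

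The other class II start sites higher with IFNγ belonged to HLA-DRB1 (-2.23), HLA-DOA (-2.08), HLA-DRB5 (-2.03), HLA-DPB1 (-1.77), HLA-DMB (-1.16) and HLA-DMA (-0.84), the last 2 of which load peptides. The HLA-DMA start site was already open, with a mean of 13.2 per Mb without stimulation, 18.9 with IFNα and 34.4 with IFNγ. HLA genes are similar in sequence and vary between genomes, so the assignment of reads among DRB genes is uncertain. The HLA-DQA1 start-site region, with means of 0.785 with IFNα and 2.11 with IFNγ, did not pass (difference -1.04, limma adjusted p = 0.263).

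In the MHC class I list, which covers the presentation of peptides to CD8 T cells, 4 of 18 start-site regions were higher with IFNγ and none with IFNα, beside 0.557% and 0.322% of all start-site regions. These were the immunoproteasome subunits PSMB9 (-0.95) and PSMB8 (-0.85), the class I transactivator NLRC5 (-0.59) and the peptide transporter subunit TAP1 (-0.39). PSMB8 had 20.6 to 26.3 per Mb with IFNγ and 10.4 to 15.2 with IFNα, without overlap. At PSMB9 the highest IFNα library (13.0) exceeded the lowest IFNγ library (12.7), and the TAP1 libraries overlapped as well. The PSMB9 call was lost without IFNα replicate 1 and without the mean-variance trend of the fit. The PSMB8 call was lost without the trend (limma adjusted p = 0.0918). TAP1 and NLRC5 lost their calls in 11 and 12 of 23 alternative settings. The start site of B2M, the light chain gene, did not pass (difference -0.22, limma adjusted p = 0.462). Near HLA-E, a non-classical class I gene, 5 regions over 3.9 kb formed a run higher with IFNγ, with a median difference of -1.66. Each of these calls was lost in at least 1 alternative setting, and that of the region starting at chr6:30492942 in 10 of 22.

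**Figure D5:**
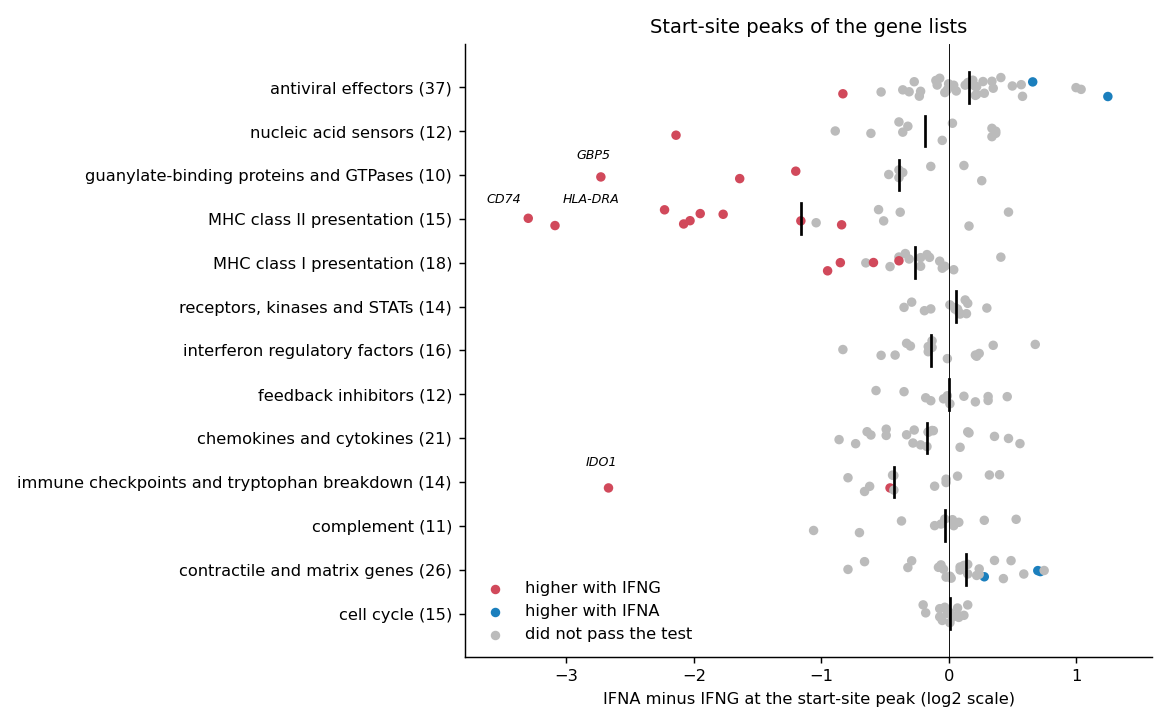
The difference between IFNA and IFNG at the start-site region is shown on the log2 scale for every measured gene of 13 lists, with the number measured after each name and a bar at the list's median. The MHC class II row extends to -3.30 and has 9 of 15 genes higher with IFNG, while the receptor, regulatory factor, feedback, chemokine, complement and cell cycle rows have no called gene.

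Most antiviral effector start sites were raised by each interferon, and 3 of them passed the test between the interferons. Against unstimulated cells 27 of 37 start-site regions were raised by IFNα and 25 by IFNγ, beside 1.17% and 2.28% of all start-site regions. In the direct comparison 2 were higher with IFNα and 1 with IFNγ, beside 0.322% and 0.557% of all start-site regions. The list's median difference was 0.16. MX1, a GTPase that blocks virus replication, had 22.6, 20.5, 19.2 and 24.4 per Mb at its start site with IFNα, 8.40, 10.2, 8.83 and 7.91 with IFNγ and 1.97, 3.53, 3.94 and 3.13 without stimulation. The 3 groups did not overlap, and the difference of 1.25 ± 0.24 (limma adjusted p = 0.000156) held in all 23 alternative settings. HERC5, the ligase that attaches ISG15 to proteins, had 33.2 to 36.8 with IFNα, 19.0 to 24.7 with IFNγ and 9.34 to 16.9 without stimulation. The groups again did not overlap (difference 0.66, limma adjusted p = 0.00658). The HERC5 call was lost without IFNγ replicate 1 and without the mean-variance trend of the fit. The start site of APOBEC3G, a cytidine deaminase that restricts retroviruses, went the other way, with 19.5 to 23.9 with IFNγ and 9.86 to 13.7 with IFNα (difference -0.83, limma adjusted p = 0.0057). It lost its call without IFNα replicate 1 and without the mean-variance trend. The neighbours of APOBEC3G in the APOBEC3 family are similar in sequence.

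The remaining 34 antiviral start sites did not pass the test between the treatments. OAS2, which makes the activator of RNase L, had means of 36.3 with IFNα and 31.2 with IFNγ against 2.45 without stimulation (difference 0.22, limma adjusted p = 0.888). RSAD2, which encodes viperin, had 21.4 with IFNα, 10.1 with IFNγ and 1.85 without stimulation, and its difference of 1.04 did not pass (limma adjusted p = 0.0585).

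Away from their start sites, antiviral genes had some of the largest differences in favour of IFNα. By deposited gene name, 19 of the 464 regions of the list were higher with IFNα and 8 with IFNγ, beside 0.297% and 0.878% of all tested regions. The largest difference in favour of IFNα was at a region near IFI6, a gene for a mitochondrial antiviral protein. This region lay in an intron of LINC02574 at chr1:27664189-27664689. It had 11.2, 12.4, 12.6 and 12.0 per Mb with IFNα, 1.21, 1.35, 1.08 and 0.706 with IFNγ and 0.719, 0.673, 1.72 and 0.551 without stimulation. IFNγ and unstimulated libraries overlapped and all IFNα libraries were higher (difference 3.00 ± 0.38, limma adjusted p = 9.44e-10).

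The HERC6 intron whose ISRE is printed above had 5.30, 4.78, 5.13 and 4.03 with IFNα, 0, 0.866, 0.205 and 0.887 with IFNγ and 0.205 to 0.890 without stimulation. IFNγ and unstimulated libraries overlapped (difference 2.55 ± 0.39, limma adjusted p = 1.07e-06). An MX1 region 14.6 kb from the start site had 3.34 to 5.68 with IFNα, 0.532 to 0.884 with IFNγ and 0.863 to 1.67 without stimulation (difference 2.08 ± 0.38, limma adjusted p = 8.93e-05). MX1 had 6 of 15 regions higher with IFNα. They summed to 51.4 to 59.9 with IFNα, 15.6 to 17.1 with IFNγ and 7.83 to 13.7 without stimulation, with IFNγ above the unstimulated libraries.

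The RNA sensor RIGI, named DDX58 in the deposited table, had 4 of 18 regions higher with IFNα, and ACO1 next to it, the iron-responsive aconitase, had 4 of 45. The largest of these differences was 2.27 ± 0.38 in a RIGI intron, with 2.34 to 4.74 with IFNα, 0.0226 to 0.508 with IFNγ and 0 to 0.564 without stimulation. A region of IRF7, the transcription factor that amplifies type I interferon production, had 5.52 to 7.07 with IFNα and 0.636 to 2.25 with IFNγ (difference 1.94). A region 8.22 kb from the start of IFIT2, an RNA-binding antiviral protein, was raised by both interferons, with 10.8 to 16.1 with IFNα, 2.64 to 3.81 with IFNγ and 0.458 to 0.754 without stimulation. The 3 groups did not overlap there. The other regions among the 10 largest carried the names ARHGEF19 (2.61), RSAD2 (1.99) and MIR935 (1.95). With a pseudocount of 0.1 the IFIT2 and RSAD2 regions lost their calls (limma adjusted p = 0.194 and 0.0917).

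Single genes also had regions on both sides. A region 2.42 kb from a start site but named IFI6 had a mean of 29.3 with IFNγ, 10.9 with IFNα and 6.56 without stimulation (difference -1.41). Of the regions named IFIT1, one 0.673 kb from the start had 17.0 with IFNγ, 6.76 with IFNα and 13.5 without stimulation (difference -1.30, limma adjusted p = 2.14e-09), while another 3.2 kb from the start was higher with IFNα (1.72).

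No start site of the components that receive, transmit or dampen the signal was called between the treatments. None of 14 start-site regions of receptors, kinases and STATs, 16 of interferon regulatory factors and 12 of feedback inhibitors passed the test. Of all start-site regions 0.557% were higher with IFNγ and 0.322% with IFNα, so that the absence of calls in lists of this size does not set these genes apart. IFNAR1 (0.14, 95% interval -0.15 to 0.44), IFNAR2 (-0.14, -0.58 to 0.30), IFNGR1 (0.30, 0.01 to 0.59), IFNGR2 (0.15, -0.42 to 0.73), TYK2 (0.13, -0.08 to 0.34), JAK1 (-0.35, -0.67 to -0.02) and JAK2 (0.01, -0.33 to 0.35) had limma adjusted p-values from 0.488 to 0.995. STAT2 (0.05, -0.10 to 0.20) and IRF9 (0.22, -0.07 to 0.50) did not pass either, and IRF9 was raised by both. SOCS1, the inhibitor of JAK kinases, was raised by both as well, from 13.4 to 21.1 with IFNα and to 23.0 with IFNγ (difference -0.14, 95% interval -0.42 to 0.14, limma adjusted p = 0.858).

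Some regions that carried the names of these genes passed the test. Of the regions named for receptors, kinases and STATs 6 of 439 were higher with IFNγ and none with IFNα, of those named for feedback inhibitors 7 of 255 and none, and of those named for regulatory factors 27 of 315 and 1, most of them at IRF1, beside 0.878% and 0.297% of all tested regions. One of them carried the name PTPN2, a phosphatase that dampens JAK and STAT signalling, and lay 7.0 kb from the nearest start site of any gene. Its mean was 10.1 with IFNγ, 1.56 with IFNα and 1.99 without stimulation (difference -2.37, limma adjusted p = 2.96e-09). A region named JAK2 had 10.1 with IFNγ, 2.69 with IFNα and 2.11 without stimulation (difference -1.75, limma adjusted p = 2.12e-05). It lay 12.5 kb from the nearest start site of any gene, which need not be that of JAK2.

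Chemokines and cytokines had no called start site among 21. Of all start-site regions 0.557% were higher with IFNγ and 0.322% with IFNα. Over unstimulated cells IFNα raised 3 and IFNγ 7 of the 21, beside 1.17% and 2.28% of all start-site regions. CXCL10, which attracts T cells, had means of 10.8 with IFNα and 7.15 with IFNγ against 0.974 without stimulation (difference 0.56, limma adjusted p = 0.614), and CXCL11 had 5.28 and 6.93 against 0.709 (difference -0.49, limma adjusted p = 0.774). By name, 16 of 667 regions of this list were higher with IFNγ and 1 with IFNα, beside 0.878% and 0.297% of all tested regions. The largest difference was at a region named for CSF1, the macrophage growth factor, and 22.0 kb from the nearest start site of any gene. Its mean was 22.3 with IFNγ, 3.98 with IFNα and 2.72 without stimulation (difference -2.35, limma adjusted p = 1.43e-11). A region 4.94 kb from a start site and named for the chemokine CX3CL1 had 9.13 with IFNγ, 1.72 with IFNα and 1.01 without stimulation (difference -2.15).

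Among immune checkpoints and tryptophan breakdown, IDO1, which degrades tryptophan, was the most different start site of the 14 measured. It had 12.6, 10.3, 10.8 and 11.7 per Mb with IFNγ, 1.09, 0.908, 1.71 and 1.87 with IFNα and 0.865, 0.190, 0.911 and 1.10 without stimulation. IFNα and unstimulated libraries overlapped, and the difference was -2.67 ± 0.36 (limma adjusted p = 1.33e-08). CD274, which encodes the checkpoint ligand PD-L1, was raised by both treatments, with means of 20.2 with IFNα and 27.4 with IFNγ against 13.8, and did not pass between them (difference -0.43, limma adjusted p = 0.191). Among the start sites of 12 nucleic acid sensors only that of the DNA sensor AIM2 passed the test, with 4.58 to 6.10 with IFNγ, 0.343 to 1.87 with IFNα and 0 to 1.87 without stimulation (difference -2.14 ± 0.39, limma adjusted p = 8.29e-05). None of 11 complement and 15 cell cycle start sites passed the test. Beside these lists and the sensors, 0.557% of all start-site regions were higher with IFNγ and 0.322% with IFNα.

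Contractile and matrix genes, the hallmark of myofibroblasts, had their start-site calls on the IFNα side. Of 26 start-site regions 3 were higher with IFNα and none with IFNγ, beside 0.322% and 0.557% of all start-site regions. All 3 were genes of the contractile apparatus, namely the calponin gene CNN1 (0.72), the smooth muscle actin gene ACTA2 (0.70) and the transgelin gene TAGLN (0.28). ACTA2 had 23.9, 24.1, 16.9 and 21.3 per Mb with IFNα, 13.5, 11.1, 15.5 and 12.2 with IFNγ and 20.1, 20.8, 24.7 and 12.4 without stimulation. The interferon groups did not overlap, while the unstimulated libraries spanned both, and IFNγ lowered the region by 0.53 on the log2 scale (limma adjusted p = 0.0203). CNN1 had 10.4 to 15.3 with IFNα and 5.86 to 9.64 with IFNγ, and its call was lost in 5 of 23 alternative settings, among them those without IFNα replicate 1, 2 or 4 or IFNγ replicate 4. The call of TAGLN was lost in 18 of 23, and that of ACTA2 without the mean-variance trend (limma adjusted p = 0.183). Against unstimulated cells none of the 26 start-site regions was raised by IFNα and 1 by IFNγ, beside 1.17% and 2.28% of all start-site regions.

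TGFBI, IGFBP4 and COL1A1 were among the names with the most regions higher with IFNα, after MX1 and beside IFI6, RIGI, ACO1 and HIST1H4H. TGFBI, an extracellular adhesion protein, had 5 of 36 regions, IGFBP4, a binding protein for insulin-like growth factors, had 4 of 43 and the collagen gene COL1A1 4 of 29. The TGFBI regions summed to 42.5 to 57.3 per Mb with IFNα, 26.4 to 29.9 with IFNγ and 44.6 to 49.7 without stimulation. IFNα and unstimulated libraries overlapped and the IFNγ libraries were lower, and IFNγ lowered 4 of the 5 regions. The IGFBP4 regions summed to 23.1 to 36.2 with IFNα, 13.2 to 16.4 with IFNγ and 23.6 to 25.8 without stimulation, and IFNγ lowered 3 of 4. At COL1A1 the sums were 61.4 to 67.4 with IFNα, 37.1 to 41.1 with IFNγ and 48.4 to 56.7 without stimulation, so that the unstimulated libraries lay between the treatments. Of the 4 COL1A1 calls 3 were lost in 10, 18 and 6 of 23 alternative settings, and without IFNα replicate 3 only 1 of the 4 passed. A region named for the integrin gene ITGA5 had 12.8 to 18.4 with IFNα, 5.48 to 6.69 with IFNγ and 6.93 to 10.8 without stimulation (difference 1.28 ± 0.18, limma adjusted p = 3.49e-08). By name, 13 of 933 regions of the contractile and matrix list were higher with IFNα and 8 with IFNγ, beside 0.297% and 0.878% of all tested regions, so that the IFNγ share was near that of all regions.

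The remaining promoters with the largest differences in favour of IFNα were named LIPA (1.69), LINC00547 (1.40) and LPIN1 (1.33). The start site nearest to the region named LIPA was that of IFIT5, a gene of the antiviral list, 1.9 kb away. The region named LPIN1 lay in an intron of another gene, 0.699 kb from that gene's start. The 4 regions named HIST1H4H, a histone gene, summed to 40.8 to 43.9 with IFNα against 21.9 to 29.8 with IFNγ and 23.8 to 31.5 without stimulation. The LINC00547 call was lost in 8 of 23 alternative settings, the LIPA call with a pseudocount of 0.1 (limma adjusted p = 0.185), and the LPIN1 call after thinning to equal depth and without IFNγ replicate 4.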

How the data were processed

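ATAC-seq libraries of Ccd18-Co were grouped by their labels, and each column of the deposited table was matched to a sample by library number. The authors ran the ENCODE ATAC-seq pipeline with MACS2 against hg38, and deposited the signal as summed read coverage of each 500-base region, unscaled. The study's methods describe peaks of this width for its single-cell ATAC-seq data, called with MACS2 and merged in ArchR, and peaks of variable length for bulk libraries, but whether the regions of this table are the former is not given in the sources used here. Coverage follows whole reads of 75 bases rather than transposase cut sites, and both mates of a fragment can add to 1 region.

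Coverage sums are not counts, so limma 3.58.1 (R 4.3.3) was used in place of the authors' count model. Each value was scaled to the library total in Mb and to a composition factor (mean of log ratios trimmed by 30%, means by 5%), 0.5 was added and log2 taken. All 44 libraries entered with group as the only term and a mean-variance trend, 207 regions at or under a log2 mean of -3 were left out, and Benjamini-Hochberg adjustment ran over 407176 regions. Calls have an adjusted p under 0.05. The fit was tested on simulated data. A start-site region is the tested region nearest to the Ensembl canonical start in GENCODE v44 within 1 kb. Coordinates are as deposited. A library's 3-read floor was 0.274 to 0.728 per Mb, which covers counting error only.

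Named regions were, in each direction, the 10 largest and 5 largest promoter differences (mean coverage of at least 1 per Mb, no overlap of libraries, 1 per gene name), the 5 gene names with most calls, called start sites of the lists, and a fixed set of receptors, kinases and factors. Items withheld for evaluation are not reported here. Other regions of list genes and start sites that were not called were named after their values were seen. The comparison, the members and the lists were chosen with earlier results of these data known. Alternatives covered scaling, GC, pseudocount, filter, libraries fitted, weights, depth, threshold, variance trend, replicate block and leaving out each library.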

Additional observations from a re-analysis of the deposited data

Results flagged for a closer look

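In 159 groups of 4 libraries looked at, 12 held a library whose gap to its nearest neighbour, as a share of the group's range, was above Dixon's 95% critical value, which chance passes in about 1 in 20 groups. Total coverage was 823.1 Mb in IFNα replicate 2 against 325.2 to 390.5 Mb in the other IFNα libraries, and 657.5 Mb in IFNγ replicate 2 against 420.8 to 452.7 Mb in the others. At the EID2 region IFNγ replicate 4 had 16.7 per Mb against 13.9 to 14.3, and unstimulated replicate 4 had 3.14 against 1.29 to 1.56. At the IFI6 region unstimulated replicate 3 had 1.72 against 0.551 to 0.719, at the IRF7 region IFNα replicate 3 had 7.07 against 5.52 to 5.67, and at the LINC00547 region unstimulated replicate 3 had 0.446 against 1.18 to 1.31. At the APOBEC3G start site, in a region named APOBEC3H, IFNγ replicate 4 had 19.5 against 23.2 to 23.9. At GBP2 unstimulated replicate 3 had 9.73 against 7.48 to 7.76, and at GBP4 IFNγ replicate 1 had 3.5 against 4.69 to 4.85. At the WARS1 start site, in a region named WDR25, IFNα replicate 2 had 40.2 against 30.2 to 31.8, and at CNN1 IFNα replicate 3 had 10.4 against 15.1 to 15.3.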

How the results depend on the processing

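Of the 4783 regions called between IFNα and IFNγ, 1029 were called in all 23 alternatives, 877 of them higher with IFNγ and 152 with IFNα, and no region called in both the main setting and an alternative changed direction. None of the 223 named regions reversed, and 98 kept their call in every alternative in which they were tested. The total was 2336 at an adjusted p under 0.01 (1834 higher with IFNγ, 502 with IFNα), 2826 with a pseudocount of 0.1 (1994 higher with IFNγ) and 2310 without the mean-variance trend (1981 and 329). Library quality weights gave 2116 regions higher with IFNα. Leaving out 1 interferon library gave 3048 to 3883 calls, 2332 to 2923 higher with IFNγ and 710 to 1084 with IFNα, 3 to 5 list start sites higher with IFNα (3 without IFNα replicate 2 or 4 or IFNγ replicate 1), and leaving out 1 IFNα or unstimulated library gave 2225 to 2830 calls for IFNα against unstimulated. List start sites higher with IFNα numbered 5, against 8 with a pseudocount of 2, 1 without the trend and 3 with the highest promoter-class region of a gene. The strict ISRE, which is the core followed by C or T, was present in 14.2% of regions higher with IFNγ and 2.07% of those higher with IFNα, beside 3.6% of all tested regions. The strict GAS was present in 5.49%, 1.40% and 2.29% of the same sets. The cause of these shifts was not tested, apart from the stricter threshold and motifs, which admit fewer by construction. Libraries with the same replicate number did not deviate together (residual correlations -0.016 to 0.016), and with the replicate number as a block there were 4895 calls (3646 and 1249), with list start-site totals as in the main setting. Low coverage limits regions near the 3-read floor, where differences depend on the pseudocount.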
